A study of Rattus norvegicus with 24 samples.

Results

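The livers of rats given a single day of metformin were compared with those of rats given the vehicle for the same time, across all genes with a probe set annotated by a single symbol. The comparison used 8 of the 24 arrays of the series, 4 from metformin rats and 4 from control rats, with 1 rat per array. It covered 22093 genes, each read by the probe set with the highest mean over all 24 arrays, and 19686 of them lay above the intensity filter and were tested. The metformin group was made of male RccHan Wistar rats of 7 to 8 weeks that were gavaged with metformin at 800 mg/kg. The control group was made of male rats of the same strain and age that were gavaged with the vehicle alone, a mixture of ethanol, Kolliphor HS 15 and tap water. Both groups ate chow and drank water freely and were caged in groups of 2 or 3, and no source used here ties a rat to its cage. The series also holds metformin and control groups of 4 arrays each after 3 and after 14 days, which served here for the shared estimate of spread and for the differences between days. The labels state 5 animals per group, of which 4 arrays per group were analysed here. Neither the hour of necropsy nor the feeding state at necropsy is given in the sources used here, and their part in the results was not tested.

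Metformin is a biguanide that lowers blood glucose, largely by lowering glucose output from the liver. It enters hepatocytes through organic cation transporters, is known to inhibit complex I of the respiratory chain and can activate the energy sensor AMPK. Liver fat genes are under opposed controls: insulin acts through SREBP-1c, the product of Srebf1, to raise the enzymes of fatty acid synthesis, while the nuclear receptor PPARA raises the enzymes of fatty acid oxidation in fasting.

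The arrays resembled each other closely. Pairs of day 1 arrays correlated at r = 0.9908 to 0.9948 across the tested genes, and their median log2 intensity lay between 6.21 and 6.25 in metformin arrays and between 6.19 and 6.21 in control arrays. The first principal component of the 8 arrays held 21.59% of the variance and the second 20.77%. Control replicate 4 stood apart: its score on the first component, 14.7, lay among those of the metformin rats (3.59 to 16.2) and above those of the other controls (-25.3 to -7.62), and its score on the second, 26.05, was the highest of all 8. Changes and list counts that moved by over 1.5 times without this rat are also given without it. The hepatocyte markers were high in both groups, with albumin (Alb) at 19.85 in metformin livers and 19.87 in control livers and transthyretin (Ttr) at 19.43 in both, as mean log2 intensity. All values of single rats below are log2 intensities, given in the order of replicates 1 to 4, and levels of different genes cannot be compared because each probe set has its own response.

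Few single genes passed the test after 1 day. Limma called 3 genes at an adjusted p under 0.05, all higher in metformin livers, which is 0.0152% of the genes tested. Without adjustment, 1619 genes (8.22%) had a p under 0.05, of which 1132 (5.75%) were higher and 487 (2.47%) lower. The groups did not overlap, with all 4 metformin rats above all 4 controls, in 682 genes (3.46%), and with all 4 below in 339 (1.72%), which is 5.19% of genes in all. Over all tested genes the median log2 change, metformin minus control, was 0.017, and 55.6% of genes had a positive change. A change of more than 2-fold was measured for 19 genes higher and 23 genes lower. The called genes therefore had smaller changes than many that were not called, which the plot of all genes shows.

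**Figure D1:**
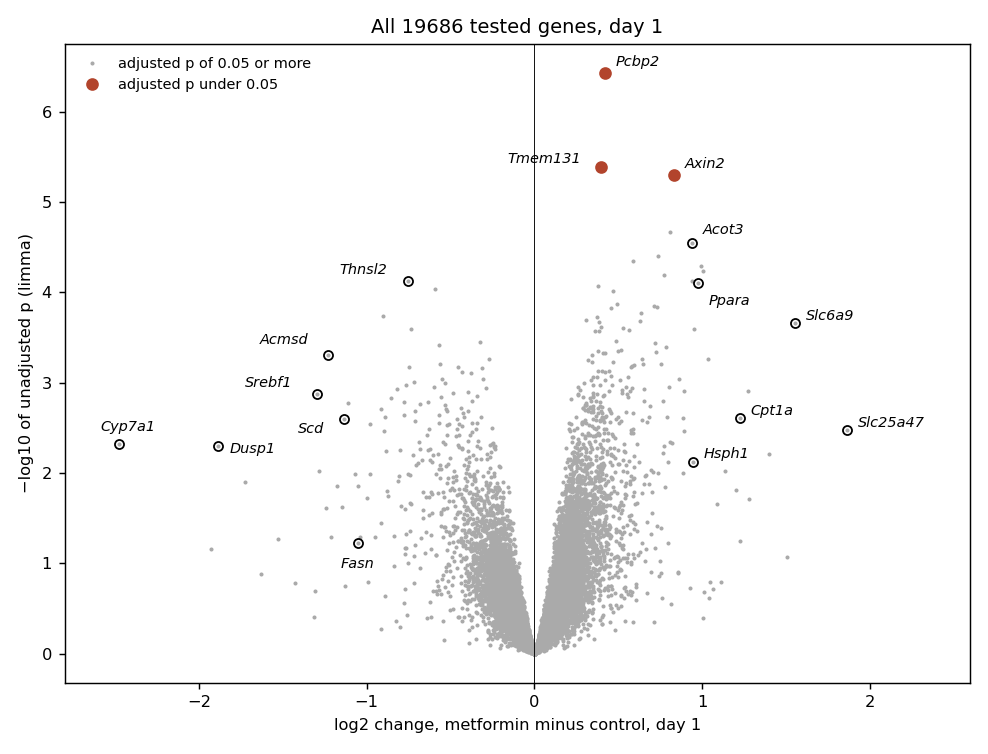
Each point is 1 of the 19686 tested genes, placed by its log2 change (metformin minus control, day 1) and by −log10 of the unadjusted limma p, so that higher points have smaller p. The 3 genes with an adjusted p under 0.05 (filled) lie between 0.40 and 0.83 on the horizontal axis, while Cyp7a1 at -2.48 and Slc25a47 at 1.87 (open) lie lower and have larger SEs, 0.79 and 0.57.

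Axin2, a scaffold of the complex that destroys beta-catenin and a gene that Wnt signalling itself induces, rose. It read 6.80, 7.20, 7.71 and 7.43 in metformin livers, against 6.53, 6.45, 6.38 and 6.47 in control livers. The controls lay within a narrow band, and the metformin rats lay above it by unequal amounts, replicate 1 the least and replicate 3 the most. The log2 change was 0.83 ± 0.14 (SE, n = 4 per group; 1.78-fold, 95% interval 0.54 to 1.12, limma adjusted p = 0.0332). Over the leave-one-out fits and other settings the change lay between 0.69 and 0.99, and its adjusted p between 0.0011 and 0.363.

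Pcbp2, a protein that binds poly(C) stretches in RNA and acts on mRNA stability and translation, rose with the smallest p of all genes. It read 11.45, 11.51, 11.54 and 11.60 in metformin livers, against 11.17, 11.10, 11.13 and 11.03 in control livers. Both groups were tight, with an SD of 0.06 each, and were separated by more than the width of either. The log2 change was 0.42 ± 0.06 (1.34-fold, limma adjusted p = 0.00735). Its adjusted p was 0.101 after quantile normalization, 0.222 with a replicate block and 0.363 with the day 1 arrays fitted alone, and no gene was called in any of these fits. Among the 5 genes of its family, the other 4 had changes between -0.19 (Hnrnpk) and 0.15 (Pcbp1), none called. Tmem131, a membrane protein that takes part in collagen secretion, read 10.41, 10.36, 10.46 and 10.36 in metformin livers, against 10.05, 9.91, 10.00 and 10.04 in control livers. It too rose without overlap, by 0.40 ± 0.06 (1.32-fold, limma adjusted p = 0.0332).

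The call of Axin2 and that of Tmem131 each rested on several single rats. Without any one of control replicates 1, 2 and 3 or metformin replicate 2, only Pcbp2 was called, and without metformin replicate 3 or 4 no gene was. Without control replicate 4 the count was 14, and without metformin replicate 1 it was 11, each including all 3 genes.

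Across all tested genes, 281 (207 higher and 74 lower) had groups that did not overlap and an unadjusted p under 0.01, pseudogene and provisional symbols left out. None of them but the 3 called genes passed the adjusted threshold, so the values below are descriptions of these 8 rats. The 12 with the largest positive change were led by Slc6a9, the glycine transporter GlyT1, which read 10.42, 11.22, 11.97 and 12.00 in metformin livers, against 10.34, 10.11, 9.53 and 9.41 in control livers. Metformin replicate 1 lay just above the highest control while replicates 3 and 4 lay far above it. The log2 change was 1.56 ± 0.35 (2.94-fold, limma adjusted p = 0.154). The list also held Atf5, a transcription factor of stress responses, at 1.00 (limma adjusted p = 0.119), and Ablim3, an actin-binding protein, at 1.03. Dmbt1, a secreted scavenger protein of mucosal defence, differed by 0.89, and by 1.00 on its other probe set. Pla2g12a, a phospholipase A2, also differed by 0.89. The remaining 7 were 6 genes of the PPARA and fatty acid oxidation list and the chaperone Hsph1, described below.

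Among the 12 with the largest negative change, Acmsd, the decarboxylase that diverts tryptophan breakdown away from NAD, read 9.13, 9.57, 9.17 and 9.03 in metformin livers, against 10.19, 11.51, 9.92 and 10.21 in control livers. All metformin rats lay below all controls, and control replicate 2 stood well above the rest. The log2 change was -1.23 ± 0.30 (limma adjusted p = 0.209), and it lay between -1.41 and -0.88 over the alternatives. Thnsl2, a threonine synthase-like protein, had the smallest p in this direction (-0.75 ± 0.15, limma adjusted p = 0.119). It read 9.48, 9.29, 9.08 and 9.25 in metformin livers, against 9.98, 9.94, 9.88 and 10.31 in control livers. Both groups were tight and lay apart.

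The same 12 held Sardh (-0.73), the sarcosine dehydrogenase, Ethe1 (-0.78), a mitochondrial enzyme of sulfide breakdown, and Orm1 (-0.76), an acute phase glycoprotein. Slc22a4 (-0.75), a carrier of organic cations, Lyst (-0.98), a regulator of lysosome size, and Syne2 (-0.82), which links the nuclear envelope to the cytoskeleton, stood beside them. Or4f4b, an olfactory receptor gene at -0.90, had metformin values of 2.94 to 4.07 that lay below the filter level of 4.28, so its change is measured near the floor of the array. Apitd1, a centromere protein, differed by -0.80 on the probe set used and by -0.15 on the other one. Fusl1 (-0.77) and Nap1l3 (-0.72), a nucleosome assembly protein-like gene, completed them. None of these 12 was called.

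**Figure D2:**
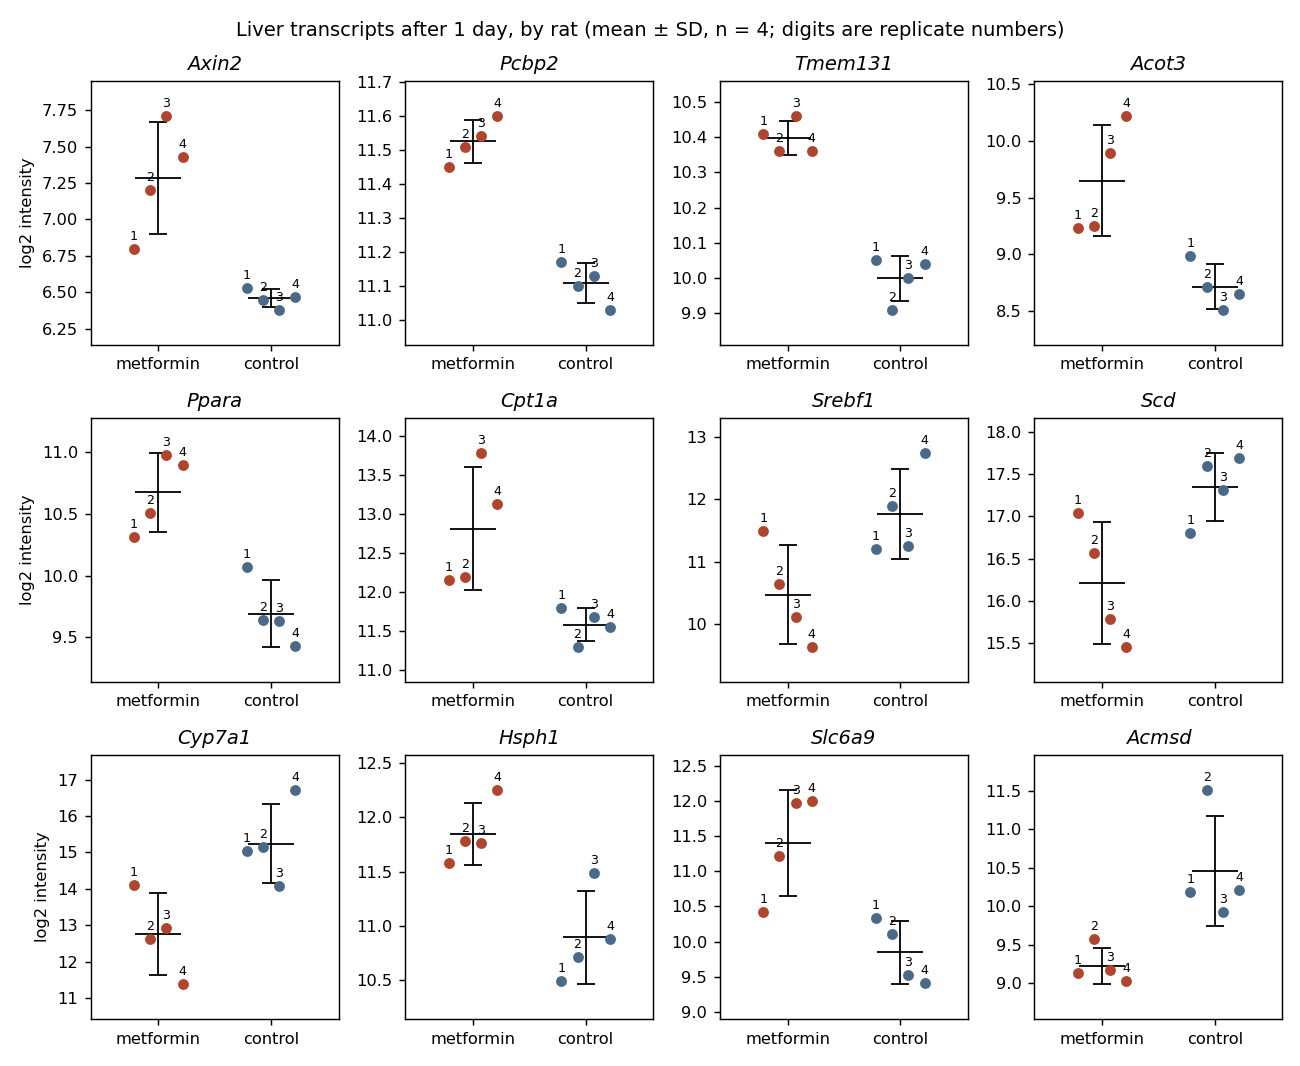
Log2 intensity of 12 genes in each rat after 1 day, metformin left and control right, with the mean and SD of 4 rats as bars and replicate numbers beside the points (each panel has its own scale). Axin2, Pcbp2 and Tmem131 were called. In Ppara, Cpt1a, Acot3 and Slc6a9 metformin replicates 3 and 4 lie above replicates 1 and 2, and in Srebf1 and Scd they lie below them.

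Genes of fatty acid oxidation lay higher after 1 day. Of 44 tested members of the PPARA list, 38 were higher and 6 lower, with 0 called, 13 higher at an unadjusted p under 0.05 and 12 with all metformin rats above all controls. Of all genes, 5.75% were higher at that p and 3.46% had all metformin rats above all controls. The median log2 change was 0.34, against 0.017 over all genes. The receptor Ppara itself read 10.31, 10.51, 10.98 and 10.90 in metformin livers, against 10.07, 9.64, 9.63 and 9.43 in control livers. The lowest metformin rat lay above the highest control, and the log2 change was 0.98 ± 0.20 (limma adjusted p = 0.119).

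Cpt1a, which commits long-chain fatty acids to entry into mitochondria, read 12.15, 12.19, 13.78 and 13.13 in metformin livers, against 11.80, 11.30, 11.68 and 11.56 in control livers. Metformin replicates 3 and 4 lay far above replicates 1 and 2, which were still above every control. The change of 1.22 ± 0.36 (2.34-fold) had a limma adjusted p of 0.267. The acyl-CoA thioesterases Acot1, Acot2 and Acot3, which release free fatty acids from CoA, had changes of 0.94, 1.00 and 0.94, with limma adjusted p of 0.119, 0.119 and 0.112. Acot3 read 9.23, 9.25, 9.89 and 10.22 in metformin livers, against 8.98, 8.71, 8.51 and 8.65 in control livers, again with replicates 3 and 4 above replicates 1 and 2. These 3 genes are close paralogs and may share probe signal.

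Ech1, an isomerase for unsaturated fatty acids, differed by 1.28. Members outside the rule for named genes were chosen after their values were seen: Eci1, another such isomerase, at 0.89, Slc22a5, the carnitine carrier, at 0.95 (0.60 on its other probe set), and Creb3l3, a liver transcription factor of lipid metabolism, at 0.73 (limma adjusted p = 0.148). Slc25a47, a liver mitochondrial carrier, had the largest change of the list, 1.87 ± 0.57 (3.64-fold, limma adjusted p = 0.29). It read 13.48, 14.48, 14.80 and 14.55 in metformin livers, against 14.01, 11.39, 12.20 and 12.25 in control livers. Control replicate 1 lay within the metformin range, so the groups overlapped. Other known targets, also named after their values were seen, had small changes. Fabp1, the fatty acid binding protein of liver, differed by -0.08. Acsl1, which activates fatty acids, differed by -0.02 and Acadm, the medium-chain dehydrogenase, by 0.03. Fgf21, a fasting hormone that PPARA induces, differed by 0.52 without being called, with a control at 6.57 inside the metformin range of 5.77 to 7.08.

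Genes of fatty acid synthesis lay lower. Of 19 tested members, 18 were lower and 1 higher, with 0 called, 8 lower at an unadjusted p under 0.05 (2.47% of all genes were so) and 3 with all metformin rats below all controls (1.72% of all genes). The median log2 change was -0.51. Srebf1, the gene of SREBP-1, read 11.50, 10.64, 10.12 and 9.64 in metformin livers, against 11.20, 11.90, 11.25 and 12.74 in control livers. Metformin replicate 1 lay above 2 of the controls, and control replicate 4 was the highest of all, so the change of -1.30 ± 0.35 (limma adjusted p = 0.245) came with overlap. Scd, the stearoyl-CoA desaturase, read 17.04, 16.57, 15.79 and 15.46 in metformin livers, against 16.80, 17.59, 17.31 and 17.69 in control livers. Its change of -1.13 ± 0.33 (limma adjusted p = 0.267) had the same 2 low metformin rats and an overlap of metformin replicate 1 with control replicate 1.

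Elovl6, which elongates palmitate, read 12.20, 11.62, 10.96 and 11.31 in metformin livers, against 12.48, 13.02, 12.21 and 15.29 in control livers. Metformin replicate 1 lay just below control replicate 3, so the groups did not overlap, and control replicate 4 lay far above the others. The change was -1.73 ± 0.63 on the probe set used, and -1.39 and -1.64 on both others. Without control replicate 4 it was -1.05. Acly, which makes cytosolic acetyl-CoA, differed by -0.98 ± 0.35 and Fasn, the fatty acid synthase, by -1.05 ± 0.53 (limma adjusted p = 0.636), with overlap in both. Without control replicate 4 the change of Fasn was -0.69. Tkt, a transketolase of the pentose phosphate pathway, had tighter groups, 9.43, 9.37, 9.13 and 9.15 in metformin livers against 9.69, 9.89, 9.59 and 9.58 in control livers, and differed by -0.42 ± 0.12 without overlap. Of these, Fasn did not reach an unadjusted p under 0.05. The rest of the 8 that did were Acacb, Acss2 and Thrsp, with changes of -0.88, -0.55 and -0.74, named after their values were seen.

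Averaged over its members, fatty acid synthesis stood at -0.29, -0.47, -0.87 and -1.01 in metformin rats, against -0.44, -0.08, -0.07 and 0.59 in control rats, as log2 difference from the control mean. Control replicate 4 was the highest and control replicate 1 lay below metformin replicate 1. Without control replicate 4 the median of the members was -0.43 and 3 members, in place of 8, had an unadjusted p under 0.05. The PPARA list averaged 0.22, 0.28, 0.63 and 0.64 in metformin rats, against 0.21, -0.12, -0.13 and 0.04 in control rats, so that metformin replicate 1 and control replicate 1 were almost level. Without control replicate 4 the PPARA list had a median of 0.32 and 14 members at an unadjusted p under 0.05. With the day 1 arrays fitted alone that count was 22. In both lists metformin replicates 3 and 4 were farthest from the control mean on the side of the metformin group.

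**Figure D3:**
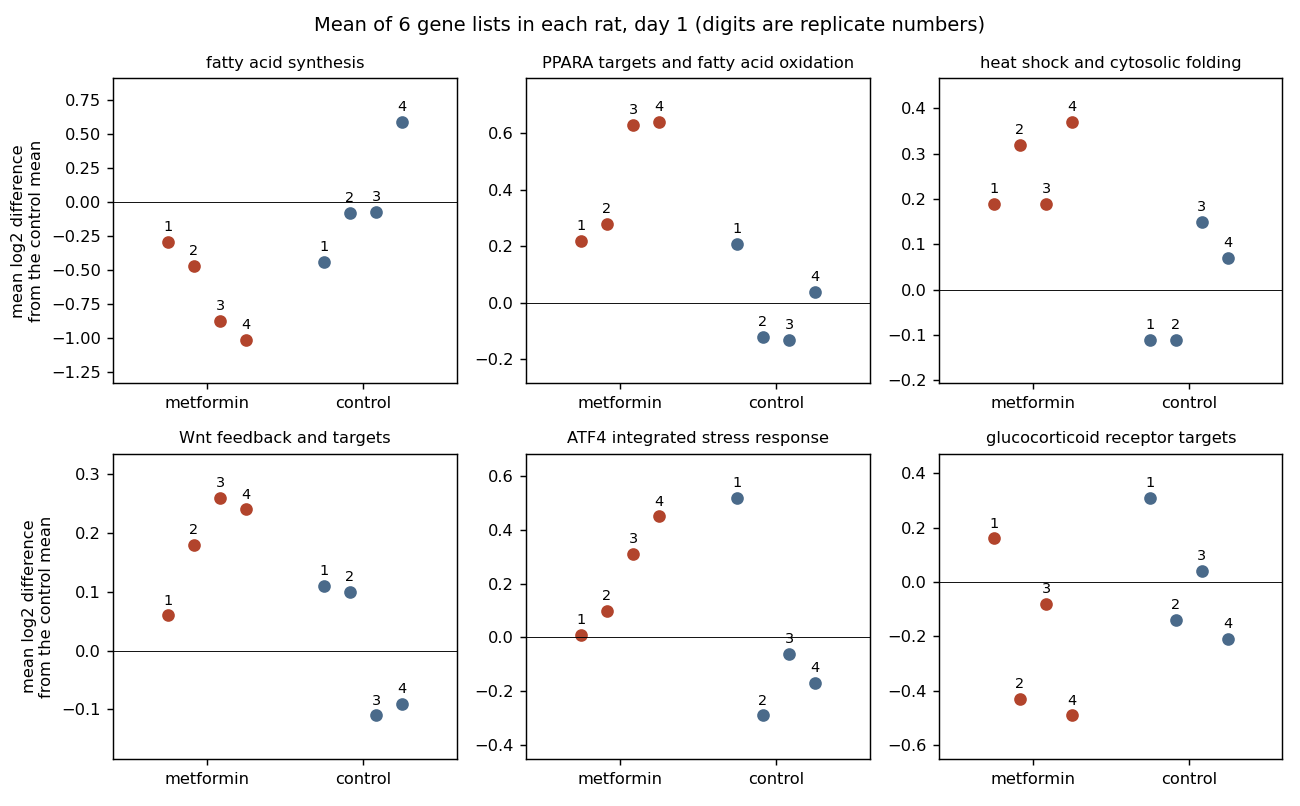
Mean log2 difference from the control mean over the members of 6 gene lists, 1 point per rat after 1 day, metformin left and control right, with replicate numbers (each panel has its own scale). Control replicate 4 is at 0.59 in fatty acid synthesis, above every other rat, and metformin replicates 3 and 4 are the highest in the PPARA list and the lowest in fatty acid synthesis.

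Neighbouring lipid lists were mixed. Among 21 genes of triglyceride assembly and lipid droplets, 15 were higher and 6 lower. Agpat3, an acyltransferase of phospholipid and triglyceride assembly, differed by 0.58 (limma adjusted p = 0.245), and Pnpla2, the lipase that starts triglyceride breakdown, by 0.52, while Gpam, the first acyltransferase of the pathway, differed by -0.54 (named after its value was seen). Of 22 genes of cholesterol synthesis and uptake 17 were lower, with a median of -0.12 and 3 at an unadjusted p under 0.05 (2.47% of all genes were so). The 3 were Pmvk (-0.48), Hsd17b7 (-0.44) and Fdft1 (-0.35). Leaving out control replicate 1 or metformin replicate 2 gave a count of 1, and leaving out control replicate 2 or metformin replicate 3 gave 5. Pmvk, a kinase of the mevalonate pathway, read 8.04, 8.03, 8.09 and 7.84 in metformin livers, against 8.54, 8.21, 8.34 and 8.85 in control livers, with no overlap. Scarb1, the liver receptor for high-density lipoprotein, differed by 0.63 ± 0.14 (limma adjusted p = 0.154) and read 11.96, 11.91, 12.07 and 12.20 in metformin livers, against 11.67, 11.34, 11.25 and 11.36 in control livers. The metformin rats were all higher. Mboat7 and Pitpnc1, both of phosphatidylinositol handling, and Mtss1, a membrane-bending protein, were named after their values were seen, for their small p, at changes of 0.74, 0.77 and 0.81 (limma adjusted p = 0.119, 0.119 and 0.105).

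Wnt feedback genes were read beside Axin2. The Wnt pathway acts in the liver mainly around the central vein, where beta-catenin and TCF factors turn on genes of that zone. The 250 bases before the transcript start that RefSeq's promoter table uses for rat Axin2 (GRCr8, chr10:94398535-94398784, plus strand) are shown. This start lies within the annotated gene, which begins at 94393379, so other transcripts start upstream of it. The window was chosen because Axin2 is the called gene with a known response to this pathway. Capitals mark CCTTTGA, part of the sequence TCF factors are known to bind, at positions -233 to -227 from the start. The window also holds CTTTGATG, one of the longer forms counted below, which is left in lower case.
Axin2: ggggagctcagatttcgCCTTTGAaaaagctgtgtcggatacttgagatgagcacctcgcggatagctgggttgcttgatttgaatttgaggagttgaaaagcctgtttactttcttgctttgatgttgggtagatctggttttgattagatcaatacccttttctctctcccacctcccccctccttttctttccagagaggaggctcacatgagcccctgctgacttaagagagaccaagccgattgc

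Of 21 Wnt feedback genes and targets 17 were higher and 4 lower, with 1 called (Axin2), 6 higher at an unadjusted p under 0.05 and a median of 0.10. Of all genes, 0.0152% were called and 5.75% were higher at that p. Tbx3, a transcription factor that Wnt induces in liver, read 6.57, 6.94, 7.71 and 7.19 in metformin livers, against 6.27, 5.92, 6.25 and 6.89 in control livers, and differed by 0.77 ± 0.25. Rnf43, a ligase that removes Wnt receptors, differed by 0.65 ± 0.24, and Wnt2, a ligand made by liver endothelium, by 0.31 ± 0.09. Each had overlap between the groups, Tbx3 through control replicate 4. Without control replicate 3, 3 members in place of 6 had an unadjusted p under 0.05. Lgr5 and Notum, other feedback and target genes of the pathway named after their values were seen, differed by -0.10 and 0.12. The genes of the pericentral zone, 15 in all, were 8 higher and 7 lower with a median of 0.05.

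CCTTTGA was present in 5 of the 14 Wnt list genes that had a RefSeq promoter of 300 bases (250 before and 50 after the start), Axin2, Nkd1, Tcf7, Sp5 and Apcdd1, against 4.87% of 27457 genes. The longer forms CTTTGATC, CTTTGAAC or CTTTGATG were present in 4 of the 14, against 2.91%. Among the holders, Axin2 alone was called, Tcf7 differed by 0.13, Nkd1 by 0.10, Sp5 by -0.02 and Apcdd1 by -0.07. All motifs were searched on both strands, 11 definitions were looked for in all promoters, 6 of them were counted in a list, and those shown were chosen after the counts were seen. The other 5 definitions were set against no list: CACGTG was present in 7.08% of genes, TGACGTCA in 2%, TGATGNAAN in 4.14%, CCAATNNN in 39.4% and TCACNCCAC with an A before it in 0.288%. In this search N stands for any base, and a match is only a run of letters. The Wnt list was made of known feedback genes and targets, so its higher share of matches says nothing about metformin.

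Heat shock genes lay higher. These chaperones fold cytosolic proteins, and heat shock factors turn them on through repeats of GAA and TTC. Of 25 tested members 22 were higher and 3 lower, with 0 called, 10 higher at an unadjusted p under 0.05, 9 with all metformin rats above all controls and a median of 0.23. Over all genes 5.75% were higher at that p and 3.46% were higher without overlap. Hsph1, a large chaperone that helps Hsp70, read 11.58, 11.78, 11.76 and 12.25 in metformin livers, against 10.49, 10.71, 11.49 and 10.88 in control livers. Control replicate 3 came close to the lowest metformin rat, and the change was 0.95 ± 0.32 (limma adjusted p = 0.386). Stip1, which joins Hsp70 to Hsp90, read 12.36, 12.67, 12.43 and 12.74 in metformin livers, against 11.92, 11.66, 12.19 and 12.16 in control livers, a change of 0.57 ± 0.15 (limma adjusted p = 0.245). The groups were apart.

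Hspa8, the constitutive Hsp70, differed by 0.59 ± 0.17 on the probe set used and by 0.33 on its other one, and it has many pseudogenes that may share its probes. Chordc1, an Hsp90 co-chaperone, differed by 0.68 ± 0.20 without overlap. Bag3 (0.78), a co-chaperone of stress, and Hsf1 (0.31), the main heat shock factor, were chosen after their values were seen. The mitochondrial chaperonins Hspd1 and Hspe1 differed by 0.10 and 0.12. Averaged over the list, metformin rats stood at 0.19, 0.32, 0.19 and 0.37, against -0.11, -0.11, 0.15 and 0.07 in control rats, so every metformin rat lay above every control. Without control replicate 2 or metformin replicate 4 the count at an unadjusted p under 0.05 was 6 in place of 10.

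A 3-part heat shock element, in which GAA, TTC and GAA stand in a row with 2 bases between neighbours (or TTC, GAA and TTC), was present in 5 of the 20 heat shock genes with a RefSeq promoter, against 0.794% of 27457 genes. The 5 were Hspa8, Hsph1, Chordc1, Hspd1 and Hspe1, whose changes ranged from 0.10 to 0.95. The 2-part forms GAANNTTC or TTCNNGAA were present in 14 of the 20, against 16.7%. This list too was made of known genes of the response, so these shares say nothing about metformin. Windows of 60 bases before the start are shown for 3 of the 5 genes. They set side by side genes with a large change (Hsph1, Hspa8) and one with a small change (Hspd1). Capitals mark the element, in Hspa8 1 of its 2 matches, and in Hspd1 they cover 2 overlapping matches. The windows are GRCr8 chr12:10427308-10427367 on the plus strand for Hsph1, chr8:50080277-50080336 on the plus strand for Hspa8 and chr9:64084228-64084287 on the minus strand for Hspd1, whose window also lies within the annotated extent of its gene.
Hsph1: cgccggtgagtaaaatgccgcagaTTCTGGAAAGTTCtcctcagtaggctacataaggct
Hspa8: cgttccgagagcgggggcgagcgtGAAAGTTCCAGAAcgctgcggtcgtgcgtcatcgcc
Hspd1: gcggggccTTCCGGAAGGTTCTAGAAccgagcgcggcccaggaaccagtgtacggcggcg

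For the lipid lists the same kind of search gave few matches. The direct repeat that PPARA binds, AGGNCA followed after 1 base by another AGGNCA, was present in 1 of 38 PPARA list genes (Fabp1), against 0.437% of all genes. TCACNCCAC, a core of the sterol element, was present in 0 of 16 fatty acid synthesis genes and 0 of 18 cholesterol genes, against 1.25% of all genes. No match says only that these letters are not within the window.

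Amino acid and methyl group genes came next. Of 33 tested members of the ATF4 integrated stress response, which answers amino acid shortage, 23 were higher and 10 lower, with 6 higher at an unadjusted p under 0.05 and 1 without overlap (Atf5). Of all genes, 5.75% were higher at that p and 3.46% were higher without overlap. Asns, the asparagine synthetase, read 7.03, 7.86, 8.87 and 8.89 in metformin livers, against 8.59, 6.11, 6.63 and 6.77 in control livers. Control replicate 1 lay near the highest metformin rats, and the change was 1.14 ± 0.40 (limma adjusted p = 0.413). Phgdh, the first enzyme of serine synthesis, differed by 0.62 (0.36 without metformin replicate 4) and Psph, its last, by 0.36, while Trib3, Gdf15 and Atf4 itself differed by -0.05, -0.33 and -0.06. The count of 6 was 17 without control replicate 1, 12 without metformin replicate 1 and 3 without metformin replicate 4.

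In the methionine and homocysteine cycle, 12 of 23 genes were higher and 11 lower, with 5 lower at an unadjusted p under 0.05, 4 of them without overlap. Of all genes, 2.47% were lower at that p and 1.72% were lower without overlap. Sardh read 12.43, 11.99, 11.80 and 12.13 in metformin livers, against 13.00, 12.97, 12.66 and 12.65 in control livers (change -0.73 ± 0.17, limma adjusted p = 0.154). Bhmt2, a methyltransferase that uses S-methylmethionine, differed by -0.37 ± 0.10, and Chdh, which begins betaine synthesis from choline, by -0.45 ± 0.13, both without overlap. Bhmt, which passes the methyl group of betaine to homocysteine, differed by -0.14, and was named after its value was seen. Mtr, the folate-dependent route to methionine, differed in the other direction, by 0.46, and by 0.28 without control replicate 4. In the wider set of amino acid breakdown 25 of 39 genes were lower, with Dbt of branched-chain breakdown at -0.32 and Ftcd of histidine breakdown at -0.41, neither overlapping.

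Bile acid genes held large single changes. Of 25 tested members 14 were higher and 11 lower, with a median of 0.02. Cyp7a1, which controls the rate of bile acid synthesis, read 14.10, 12.63, 12.94 and 11.39 in metformin livers, against 15.05, 15.14, 14.07 and 16.71 in control livers. Metformin replicate 1 lay just above control replicate 3, and every other metformin rat lay below all controls. The change was -2.48 ± 0.79 (5.57-fold lower, limma adjusted p = 0.331), between -2.92 and -1.99 over the alternatives. Cyp8b1, which makes cholic acid, differed by 1.28 ± 0.51 with metformin values of 11.80 to 13.64, against control values of 10.53 to 12.44. Abcb4, the phospholipid pump of bile, differed by 0.82 ± 0.26, and Nr5a2, a nuclear receptor that drives Cyp8b1 and Cyp7a1, by 0.31 ± 0.11 without overlap.

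Genes of glucose output showed no call. Pck1, phosphoenolpyruvate carboxykinase of gluconeogenesis, read 17.61, 16.85, 17.91 and 16.53 in metformin livers, against 17.70, 16.73, 17.09 and 17.01 in control livers (change 0.09 ± 0.49). The ranges lay over each other, and the sign turned in 3 of the leave-one-out fits. G6pc1, the glucose-6-phosphatase, differed by -0.50 ± 0.50 (-0.17 without metformin replicate 4 and -1.03 without metformin replicate 3), and Ppargc1a, a coactivator of gluconeogenesis and oxidation, by 0.45 ± 0.22 without overlap. Of 20 gluconeogenesis genes and regulators 12 were higher and 8 lower. In insulin and FOXO signalling 17 of 22 were higher, 4 of them at an unadjusted p under 0.05 (5.75% of all genes were so). That count was 1 without control replicate 2 and 2 without control replicate 3 or metformin replicate 3 or 4. Irs1, an insulin receptor substrate, read 10.45, 10.45, 10.58 and 10.64 in metformin livers, against 9.66, 9.86, 9.64 and 10.36 in control livers (change 0.65 ± 0.17, limma adjusted p = 0.245). Pik3r1, the regulatory subunit of PI3-kinase, differed by -0.92 ± 0.26 and Foxo3 by -0.80 ± 0.33, each with wide control values. The change of Foxo3 was -0.43 without control replicate 2 and -1.21 without control replicate 4.

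The named targets and carriers of metformin differed little. Of 36 tested complex I subunits 13 were higher and 23 lower, between -0.33 (Ndufs5) and 0.27, with 2 at an unadjusted p under 0.05 (8.22% of all genes were so), 1 in each direction. The catalytic AMPK subunits Prkaa1 and Prkaa2 differed by -0.12 and 0.16. Among 13 AMPK genes Stradb, a pseudokinase that activates the upstream kinase LKB1, differed by 0.42 and Cab39l, its partner, by 0.20. Of 8 tested carriers of metformin only Slc22a4 had an unadjusted p under 0.05, at 7.11, 7.10, 6.95 and 7.19 in metformin livers, against 8.08, 7.36, 8.03 and 7.85 in control livers. The groups did not overlap, and its limma adjusted p was 0.216.

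Hormone- and clock-responsive genes were scattered. Of 21 glucocorticoid receptor targets 7 were higher and 14 lower, with 1 higher and 4 lower at an unadjusted p under 0.05 and a median of -0.23. Of all genes, 5.75% were higher and 2.47% lower at that p. Without control replicate 3 the count of 4 was 2. Dusp1, a phosphatase that stress hormones induce, read 11.04, 9.93, 10.12 and 9.13 in metformin livers, against 12.71, 12.58, 11.82 and 10.66 in control livers. Control replicate 4 lay inside the metformin range, and the change was -1.88 ± 0.60 (limma adjusted p = 0.338). Per1, a clock gene that glucocorticoids also raise, differed by -0.69 ± 0.22, and Noct, a clock output nuclease, by -0.80 ± 0.29. The core clock gene Bmal1 differed by -0.02 and Per2 by -0.24. Nr1d1, another clock gene, differed by 0.58 ± 0.33 without overlap (limma adjusted p = 0.726). Of 27 clock genes 11 were higher and 16 lower, with 3 higher and 0 lower without overlap. Over all genes 3.46% were higher and 1.72% lower without overlap. Cdk2, a kinase of cell cycle entry, differed by 0.59 ± 0.12 (limma adjusted p = 0.119) at 7.76, 7.76, 7.98 and 8.15 in metformin livers, against 7.36, 7.25, 7.47 and 7.22 in control livers, with no overlap. Genes of mitosis and replication, 34 in all, averaged 0.77, -0.15, -0.94 and 0.00 in metformin rats, against -0.03, -0.49, 0.29 and 0.23 in control rats, so the widest distance lay between 2 metformin rats.

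Organelle lists had more members higher than lower, as had all tested genes, of which 55.6% were higher and 5.75% were higher at an unadjusted p under 0.05. Among 35 lysosome and autophagy genes 30 were higher and 5 lower, with 8 higher at an unadjusted p under 0.05 and a median of 0.11, and changes no larger than 0.39. Ulk1, the kinase that starts autophagy (named after its value was seen), differed by 0.39 and Tfe3, a transcription factor of lysosome genes, by 0.23. Among 36 genes of vesicle traffic from the endoplasmic reticulum to the Golgi 23 were higher, with 8 at an unadjusted p under 0.05. Stx5, a fusion protein of the Golgi, read 8.53, 8.65, 8.63 and 8.77 in metformin livers, against 8.28, 8.03, 8.29 and 8.45 in control livers (change 0.38 ± 0.10, limma adjusted p = 0.225). After quantile normalization the medians of these lists were 0.07 and 0.05. The count of 8 lysosome genes was 5 without control replicate 2, 3 or 4, and that of 8 transport genes was 4 without control replicate 2 or 3. Leaving out metformin replicate 2 gave 5 transport genes.

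**Figure D4:**
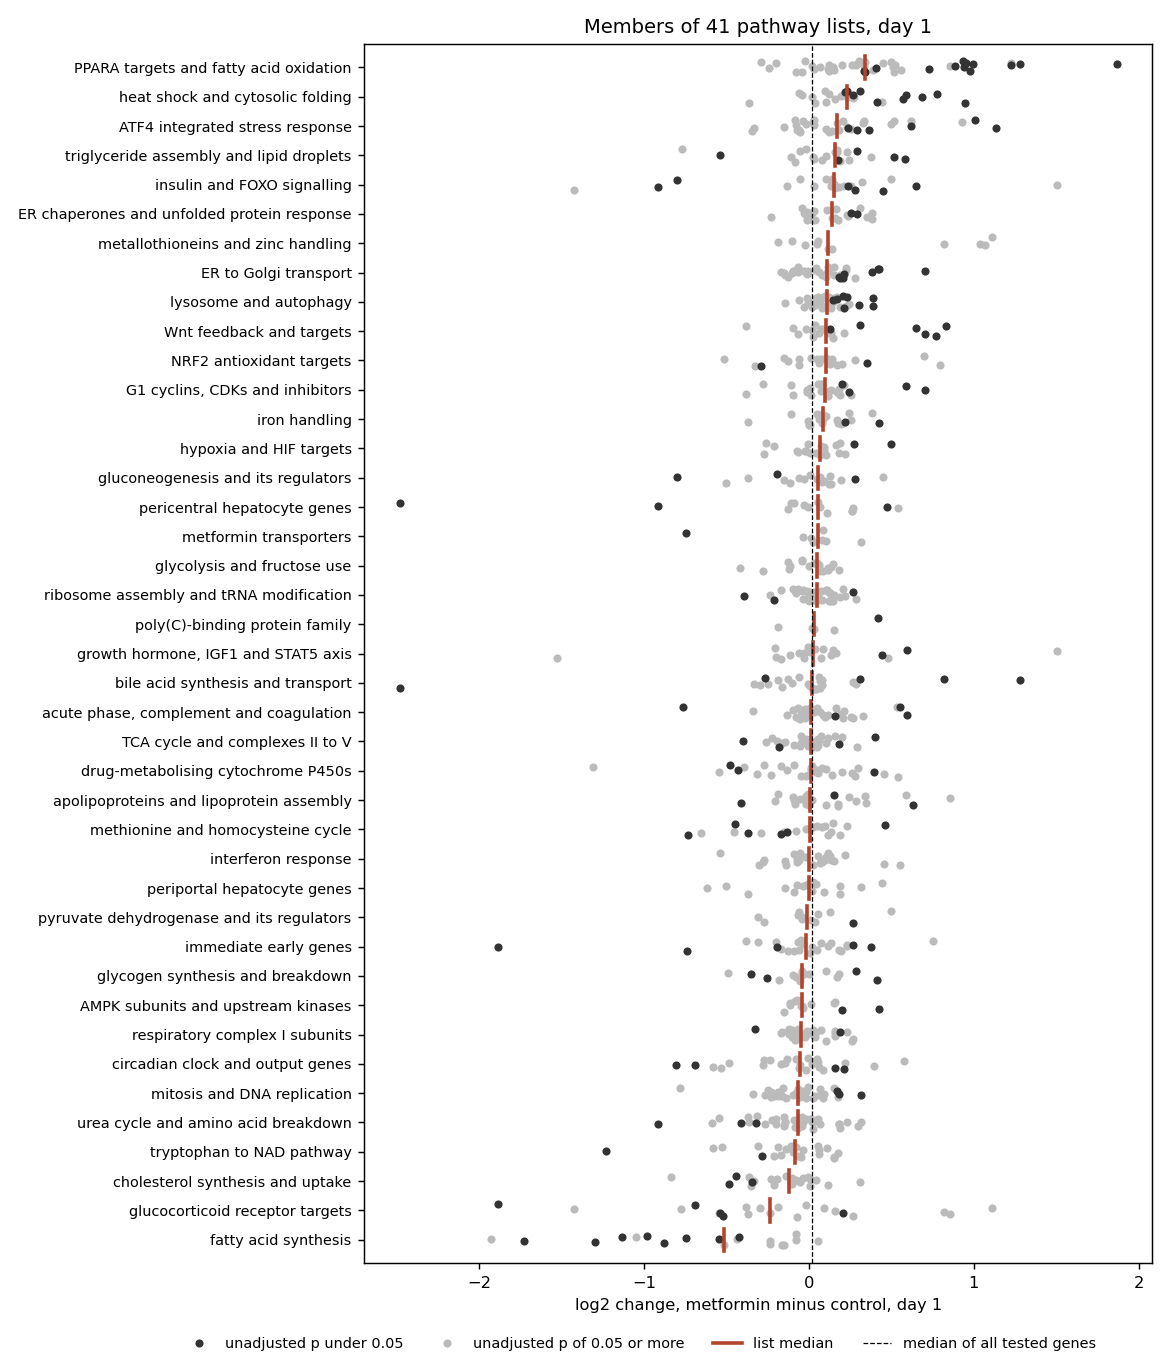
Log2 change after 1 day (metformin minus control) of each tested member of 41 pathway lists, ordered by list median, dark where the unadjusted p was under 0.05. The PPARA list is at the top with a median of 0.34, fatty acid synthesis at the bottom with -0.51, and the dashed line is the median of all tested genes, 0.017.

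Metallothioneins, which bind zinc and answer glucocorticoids and stress, varied widely among the controls. Mt2A read 17.03, 16.31, 16.74 and 17.16 in metformin livers, against 17.97, 15.48, 14.34 and 16.18 in control livers. The metformin rats lay inside the range of the controls, and the change was 0.82 ± 0.74. It was 1.48 without control replicate 1 and 0.27 without control replicate 3. Mt1 differed by 1.11 on the probe set used and by -0.20 on its other one.

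No marker of another cell type was called. In these bulk livers, fewer cells of a type and less RNA per cell cannot be told apart. Of 18 Kupffer cell and macrophage markers 14 were higher and 4 lower, and their summed intensity ranged from 17900 to 36400 in metformin rats, against 22300 to 31100 in control rats. Sums of 18 endothelial markers ranged from 32600 to 37300 in metformin rats, against 28900 to 37800 in control rats, and those of 18 stellate markers from 71600 to 77900 in metformin rats, against 48500 to 75700 in control rats. The stellate markers were 9 higher and 9 lower with a median of -0.03. Bgn, the brightest of them at 15.9 in metformin livers and 15.51 in control livers, weighed most in their sum. The endothelial markers were 13 higher and 5 lower with a median of 0.06. Pdgfra and Reln of stellate cells differed by 0.53 and 0.35 and Eng of endothelium by 0.37 at an unadjusted p under 0.05. Of 11 pancreatic acinar markers only Cela1, an elastase, passed that threshold, with a change of 0.49 (limma adjusted p = 0.267), and the part of these cells in the other results was not tested. Of 12 adipocyte markers 2 were lower at that p, Pparg (-0.37) and Fabp4 (-0.37), and adiponectin (Adipoq) lay near the filter level at 4.43 in metformin livers and 4.47 in control livers.

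The effect of day 1 was then set against that of later days, each with its own controls. The difference between the day 1 and day 3 effects was called for 0 genes in limma, with 2102 genes at an unadjusted p under 0.05 (10.7%), and other settings called up to 13. The difference between the day 1 and day 14 effects was called for 326 genes (1.66%), 214 with the higher effect on day 1 and 112 with the lower.

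Fatty acid genes were among them. A lower effect on day 1 than on day 14 was called in 9 of 19 synthesis genes, against 0.569% of all genes, and the median difference over the list was -1.52. A higher effect on day 1 was called in 4 of 44 PPARA list genes, against 1.09% of all genes, with a median difference of 0.24. The largest differences were Pnpla3 (-6.45 ± 1.42), a lipid droplet protein, Elovl6 (-5.33 ± 0.90), Fasn (-4.14 ± 0.75), Acly (-3.43 ± 0.49) and Me1 (-3.02 ± 0.55), a malic enzyme, as day 1 minus day 14 effect. In the other direction stood Mt1m (7.06 ± 1.22), Mt2A (5.98 ± 1.05), Mt1 (5.58 ± 1.09) and Mt1f (5.44 ± 1.12), similar transcripts that may share probes, with Pck1 (3.83 ± 0.69). In all of these the day 14 effect was the larger, and none was called on day 1. Effects on days 1 and 14 were 1.04 and -6.02 for Mt1m, 0.09 and -3.74 for Pck1 and -1.05 and 3.09 for Fasn. Of the 326 genes, 211 were called on day 14 itself. Cpt1a had effects of 1.22, -0.35 and -1.67 after 1, 3 and 14 days, and its day 1 minus day 14 difference was 2.90 ± 0.51 (limma adjusted p = 0.00667). Ppara had 0.98, 0.25 and -0.44 on the same days (difference 1.42 ± 0.28, limma adjusted p = 0.0154).

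The called genes of day 1 went different ways. Pcbp2 had effects of 0.42, -0.06 and -0.28 on days 1, 3 and 14, a difference of 0.70 ± 0.08 between the first and last (limma adjusted p = 0.000244). Tmem131 had 0.40, -0.02 and -0.12 (difference 0.51 ± 0.09, limma adjusted p = 0.00792). Axin2 had 0.83, 0.25 and 0.45, and neither of its differences was called. Effects on the 3 days were 0.95, 0.99 and 1.02 for Hsph1, 0.57, 0.62 and 0.75 for Stip1 and 0.68, 0.74 and 0.83 for Chordc1. They were 0.78, 0.61 and 0.12 for Bag3 and 0.31, 0.17 and 0.14 for Hsf1. The medians of the heat shock list were 0.23, 0.18 and 0.32, and none of the 25 list members had a called difference from either later day. A difference that was not called is not shown to be absent.

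**Figure D5:**
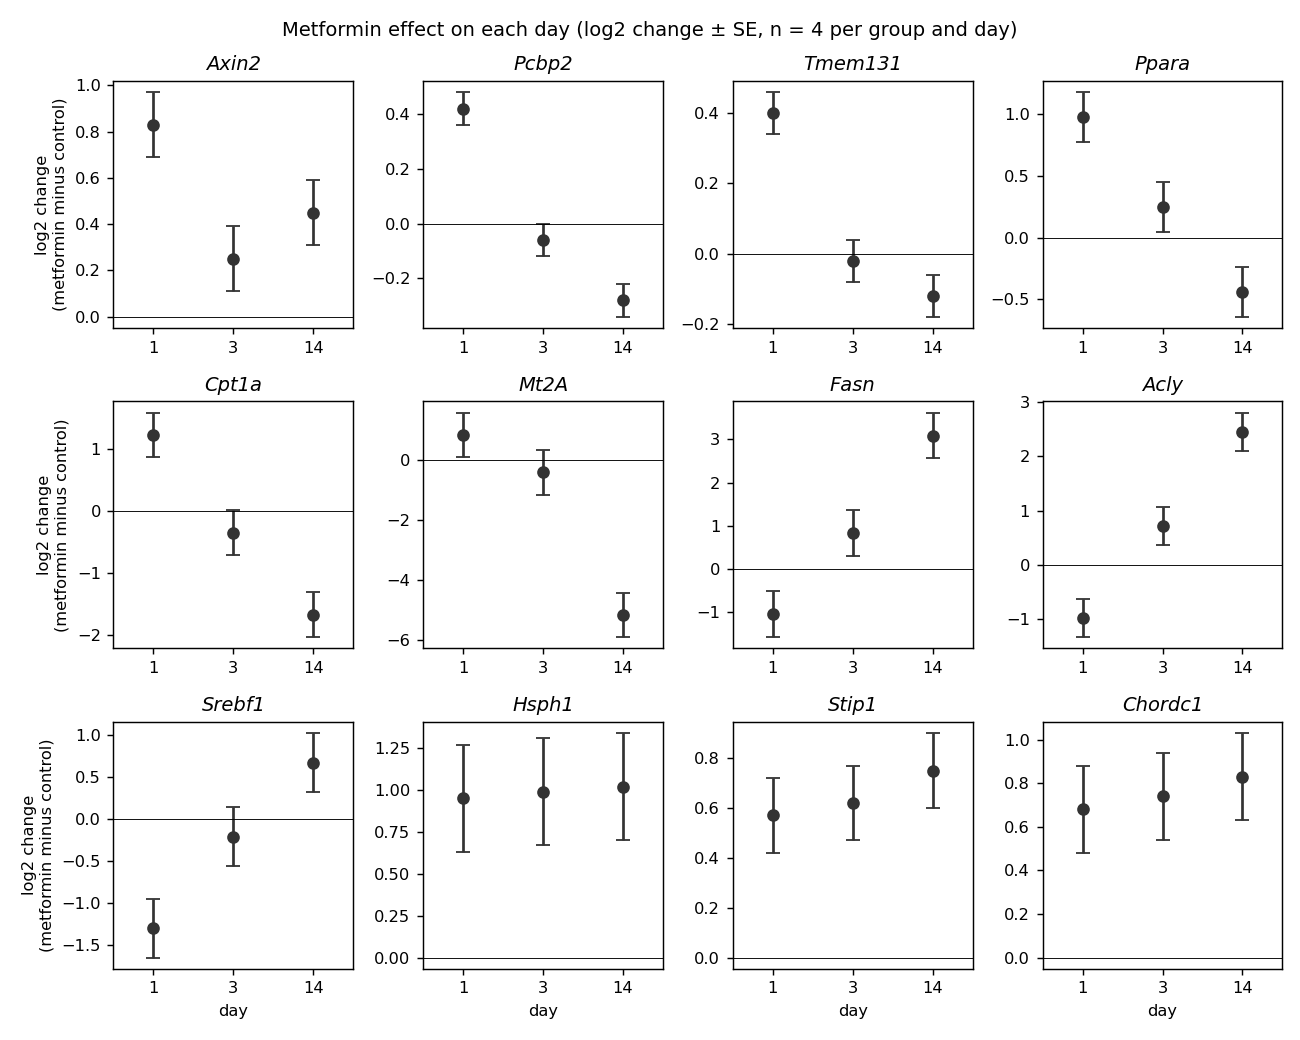
Log2 change (metformin minus control) ± SE of 12 genes after 1, 3 and 14 days, with 4 rats per group and day (each panel has its own scale). Fasn, Acly, Srebf1, Mt2A, Cpt1a, Ppara and Pcbp2 lie on opposite sides of 0 on days 1 and 14, while Hsph1, Stip1 and Chordc1 stay between 0.57 and 1.02.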

How the data were processed

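Liver RNA of 24 rats was measured on Affymetrix arrays from 300 ng of total RNA per rat, taken from 70 mg of liver, per the labels' protocols. The authors deposited linear intensities, summarised by RMA per the submitters' processing notes. Neither software nor version is given in the sources used here. The largest deposited intensity, 994415, exceeds what a 16-bit scanner can record (65535), so the scale is not settled and fold changes hold on the deposited scale. Log2 of each value was taken. Arrays carry no read depth, and their number limits the precision.

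A single gene symbol was held by 23446 of the 68842 probe sets in GEO's platform annotation, updated through Entrez identifiers with RefSeq's gene table. Each gene was read by its brightest probe set on average. Genes were tested if 4 or more arrays exceeded 4.28, percentile 30 of the whole table, which 2407 did not. Of the tested genes, 785 have pseudogene symbols that can share probes with their parents. Limma 3.58.1 (lmFit, eBayes) in R 4.3.3 fitted 1 mean per group over all 24 arrays, with 3.51 prior degrees of freedom. P-values are two-sided, adjusted by Benjamini-Hochberg over the tested genes, with 0.05 as the threshold, and measure only the spread between these rats. Differences between days are contrasts of the same model. Errors beside changes are SE of the model, with n = 4 per group.

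Genes were named by rule: those called on day 1, the 12 each way with the largest change among those without overlap at an unadjusted p under 0.01, up to 4 members per list with the smallest p, 18 fixed genes and the 5 each way with the largest called difference between days. Pseudogene symbols and those starting LOC, RGD, Mir, Snor, AABR, Olr or Vom were not named. The gene lists (41 pathway, 10 cell type), tests and rules were chosen with earlier results of these data known, and genes named after their values were seen are marked in the text. List members are described by counts and medians. Promoters (RefSeq, GRCr8) were matched by symbol. No source used here says that replicate numbers pair the samples, and same-numbered rats' deviations correlated at -0.054 to 0.094. In simulated data with 50 genes changed at each size, the day 1 comparison recovered 20% of log2 changes of 0.3, 56% of 0.5, 92% of 1.0 and 100% of 2.0 among 19686 genes, with 5 false of 139 calls. The simulated noise was independent between genes, and the real data had 3 calls, so the adjusted threshold was stricter there. These shares therefore do not carry over to the real data. No gene changed by more than 2-fold was called, and Cyp7a1 at -2.48 had a limma adjusted p of 0.331. Alternatives were other scalings, filters, probe set rules, spread estimates, a replicate block, array weights and each array left out.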

Additional observations from a re-analysis of the deposited data

Results flagged for a closer look

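The effect of metformin on day 1 differed from that on day 14 in 30 of 102 genes that the text describes among those listed by the naming rules. This was by the limma contrast of the 2 effects at an adjusted p under 0.05. Nr1d1 was not counted among the 102 and had no called difference. Over all tested genes the share was 1.66%. Some of the 30 were named because this difference was called, and others for their day 1 change, which enters it. The 2 shares therefore cannot be compared. Differences below are day 1 minus day 14 on the log2 scale, so a positive value means a higher effect on day 1. Metallothioneins had the largest positive values, Mt1m at 7.06, Mt2A at 5.98, Mt1 at 5.58 and Mt1f at 5.44, followed by Pck1 of gluconeogenesis at 3.83. In each of these the day 14 effect was larger than that of day 1, such as -6.02 against 1.04 for Mt1m. Genes of fatty acid oxidation were positive too, with Cpt1a at 2.90, Ppara at 1.42, the carnitine carrier Slc22a5 at 1.33 and Creb3l3 at 1.13. Genes of fatty acid synthesis were negative, with Pnpla3 at -6.45, Elovl6 at -5.33, Fasn at -4.14, Acly at -3.43, Me1 at -3.02, Srebf1 at -1.97 and Tkt at -0.79. Cholesterol genes were negative as well, Hsd17b7 at -1.20 and Pmvk at -0.83.

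Of the called genes of day 1, Pcbp2 differed by 0.70 and Tmem131 by 0.51. Other lipid genes with a positive difference were Pla2g12a at 1.81, Mboat7 at 1.35, Pnpla2 at 1.14, Pitpnc1 at 0.91 and Scarb1 at 0.85. Irs1 of insulin signalling stood at 1.30, Cdk2 of the cell cycle at 0.85 and Wnt2 at 0.48. The clock output gene Noct stood at -1.79 and the centromere gene Apitd1 at -1.55.

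Single rats stood apart in 7 of 204 groups of 4, by a gap to the nearest rat that was larger, as a share of the group's range, than Dixon's 95% limit, which chance gives in about 1 in 20 groups. Metformin rats stood apart at 6.10 in Wnt2, 9.84 in Reln, 7.89 in Per2 and 9.67 in Mboat7. Control rats stood apart at 4.81 in Or4f4b, 12.94 in Ftcd and 6.57 in Fgf21, all as log2 intensity.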

How the results depend on the processing

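The count of 3 genes called on day 1 was the same with no filter, a stricter filter, averaged probe sets, pseudogene symbols left out and a trended variance. It was 0 after quantile normalization (1537 genes at an unadjusted p under 0.05), 0 with every probe set tested (3217), 0 with the day 1 arrays alone (1758) and 0 with a replicate block (1473). It was 1 with array median centring and 27 with array weights, and 0 to 14 with 1 array left out. No source used here says that the replicate numbers pair rats, so the block was kept as an alternative. The difference between the day 1 and day 3 effects, with 0 calls, had 4 after quantile normalization, 1 with median centring, 4 with the stricter filter, 1 with a trended variance, 13 with array weights and 0 to 11 with 1 array left out. The difference between the day 1 and day 14 effects, with 326 calls, had 63 with every probe set, 158 with only those days, 86 with the replicate block, 610 with array weights and 137 to 547 with 1 array left out.

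Over 161 genes and 18 settings, 2847 of 2897 values kept their direction and their side of the threshold, 25 fell short of it and 20 newly passed it. Only the 3 called genes could fall short, so all 25 were theirs, over 18 settings each. The other genes kept their side by staying uncalled, so the total does not measure how stable the calls were. The 5 that turned were Pck1, at -0.04 without control replicate 2, -0.03 without metformin replicate 1 and -0.13 without metformin replicate 3, and Trib3 at 0.12 and Bmal1 at 0.06 without control replicate 1. With 1 array left out Pck1 ranged from -0.13 to 0.33, Trib3 from -0.24 to 0.12 and Bmal1 from -0.06 to 0.06. Further changes that moved by over 1.5 times with 1 control left out were Fgf21 (0.80 without replicate 1), Gdf15 (-0.54 without replicate 2), Hsf1 (0.20 without replicate 2), Ndufs5 (-0.19 without replicate 2), Prkaa2 (0.03 without replicate 4) and Per2 (-0.09 without replicate 4). The cause of these changes was not tested. Of 867 list medians, 49 moved by more than the spread between rats. The counts of list members under each array left out were added after seeing the data. With 4 rats per group the simulated comparison recovered 56% of log2 changes of 0.5, at a looser adjusted threshold than that of the real data. That share does not carry over to the real data, where no change over 2-fold was called. A change that was not called is not shown to be absent.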
